A study of Mus musculus with 10 samples.

Results

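Open chromatin at the ends of genes was examined in liver tumours driven by MYC, in the 403 regions that were called in every one of 10 ATAC-seq libraries within 1 kb of an end of a protein-coding gene. In ATAC-seq a transposase cuts accessible DNA and tags it for sequencing. The calls themselves chose these regions. Overlapping or touching rows were merged within each of the 10 deposited peak lists, the lists were joined, and a region was kept where every list overlapped it by at least 1 bp. The union held 12266 regions on the autosomes and X, of which 8345 lay at a gene end and 647 were called in all 10 lists. The other 244 regions called in all 10 lists lay farther than 1 kb from a gene end. The 403 regions touched 489 of 21631 protein-coding genes, which is 2.26% of them. That a region was present in every library is therefore fixed by the choice and is not a result.

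All tumours came from FVB mice, in which the activator tTA under LAP, a liver promoter of Cebpb, switches on TRE-MYC once doxycycline water is taken away, and were collected at time of death. The 4 WT libraries came from mice with 2 floxed Arid1a alleles and no Cre, about 55 days old. The 3 Het libraries came from mice with 1 floxed allele and Alb-cre (Cre under the albumin promoter), about 70 days old, and the 3 Homo libraries from mice with 2 floxed alleles and Alb-cre, about 100 days old. Arid1a encodes a subunit of the SWI/SNF chromatin remodelling complex. Age, presence of Cre and Arid1a genotype differ together between the groups and cannot be told apart. Alb-cre acts in hepatocytes, and cells of a tumour in which it was never active keep their floxed alleles. The titles number the libraries within a group and do not say that each is a separate mouse, so a p-value speaks only for the spread seen among these libraries, which may be technical. Arid1a itself is not among the member genes, so the members hold no check of its deletion.

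Most gene starts in mammals lie in CpG islands, stretches of DNA that keep many CpG dinucleotides and are mostly unmethylated. Their nucleosome-free stretch just before the start site is held open in nearly every cell type by general factors such as SP/KLF proteins, ETS factors, NRF1 and YY1. Promoters of genes that mark one tissue, such as the genes of secreted liver proteins, more often lack a CpG island, and many carry a TATA box. 

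The 250 bases before the start site are shown for 8 members, 3 for their high rank among the members and 5 for their place in the immediate early and stress gene list described below. The 8 were chosen after their values were seen. Not shown are Vmn2r29, which ranked above Them4 and held no match to the motifs searched, and Parp2, which ranked above Mgme1. Sequences are from RefSeq for build GRCm38.p6, 5′ to 3′ along the gene, and capitals mark matches to the motifs searched.
Them4: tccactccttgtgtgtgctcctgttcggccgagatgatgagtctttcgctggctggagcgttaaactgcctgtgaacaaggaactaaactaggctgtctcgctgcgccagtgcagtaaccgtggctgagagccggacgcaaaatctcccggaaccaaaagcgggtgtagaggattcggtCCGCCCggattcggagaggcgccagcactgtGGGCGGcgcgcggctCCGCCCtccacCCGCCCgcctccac
Ccar1: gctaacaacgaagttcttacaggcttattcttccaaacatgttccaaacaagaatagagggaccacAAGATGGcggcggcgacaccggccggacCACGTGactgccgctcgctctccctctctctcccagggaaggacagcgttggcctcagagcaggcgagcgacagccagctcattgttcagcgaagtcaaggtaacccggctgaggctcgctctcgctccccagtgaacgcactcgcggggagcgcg
Mgme1: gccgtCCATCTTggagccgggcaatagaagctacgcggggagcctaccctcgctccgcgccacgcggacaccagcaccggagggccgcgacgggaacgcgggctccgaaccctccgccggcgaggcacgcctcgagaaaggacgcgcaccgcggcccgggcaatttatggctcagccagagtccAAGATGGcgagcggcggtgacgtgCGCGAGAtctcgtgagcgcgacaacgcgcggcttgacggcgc
Dnajb1: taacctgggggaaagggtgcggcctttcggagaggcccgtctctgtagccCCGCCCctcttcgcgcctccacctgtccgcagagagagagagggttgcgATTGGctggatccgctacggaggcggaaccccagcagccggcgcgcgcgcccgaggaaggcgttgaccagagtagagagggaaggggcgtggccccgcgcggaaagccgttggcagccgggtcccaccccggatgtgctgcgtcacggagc
Hsph1: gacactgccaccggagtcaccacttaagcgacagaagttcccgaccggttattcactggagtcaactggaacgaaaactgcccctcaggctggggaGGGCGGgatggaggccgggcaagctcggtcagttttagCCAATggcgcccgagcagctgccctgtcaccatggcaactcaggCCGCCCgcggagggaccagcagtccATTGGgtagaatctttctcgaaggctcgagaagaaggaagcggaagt
Hspa5: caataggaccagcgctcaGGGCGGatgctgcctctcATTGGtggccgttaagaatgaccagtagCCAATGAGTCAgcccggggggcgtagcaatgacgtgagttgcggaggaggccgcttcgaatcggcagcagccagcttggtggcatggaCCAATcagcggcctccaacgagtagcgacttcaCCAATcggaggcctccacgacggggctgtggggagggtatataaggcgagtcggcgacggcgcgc
Btg1: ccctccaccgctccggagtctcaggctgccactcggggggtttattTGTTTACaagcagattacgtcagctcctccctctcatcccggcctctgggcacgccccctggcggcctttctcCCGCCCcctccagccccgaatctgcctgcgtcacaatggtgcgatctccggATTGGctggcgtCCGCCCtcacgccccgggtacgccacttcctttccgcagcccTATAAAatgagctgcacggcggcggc
Btg2: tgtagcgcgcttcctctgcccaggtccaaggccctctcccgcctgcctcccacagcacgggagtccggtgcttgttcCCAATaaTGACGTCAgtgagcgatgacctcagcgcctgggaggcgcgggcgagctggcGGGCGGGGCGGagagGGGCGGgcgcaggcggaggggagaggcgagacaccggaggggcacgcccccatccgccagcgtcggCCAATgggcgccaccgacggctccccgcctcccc

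The Them4 window lies at chr3:94309882-94310131, plus strand. That of Ccar1 lies at chr10:62792369-62792618, minus strand, and that of Mgme1 at chr2:144270654-144270903, plus strand. Among the stress genes, the Dnajb1 window lies at chr8:83607925-83608174, plus strand, and that of Hsph1 at chr5:149636337-149636586, minus strand. That of Hspa5 lies at chr2:34771840-34772089, plus strand, that of Btg1 at chr10:96616751-96617000, plus strand and that of Btg2 at chr1:134079156-134079405, minus strand. Them4, a thioesterase gene, holds 4 GC boxes. Ccar1, a coactivator gene, holds a YY1 site and an E-box, the motif read by MYC and USF. Mgme1, a mitochondrial exonuclease gene, holds 2 YY1 sites and a ZBTB33 core. Hspa5, which encodes the endoplasmic reticulum chaperone BiP, holds 4 CCAAT boxes, 1 of them overlapping an AP-1 site. Hsph1 and Btg2 hold 2 CCAAT boxes each, Dnajb1 and Btg1 hold 1 each, and all 5 stress genes shown hold at least 1 GC box. Nfkbia, a gene of the same list that is not shown, holds a GC box and no CCAAT box. Btg2 also holds a CREB/ATF core that reads the same on both strands, and Btg1 a TATA box and a FOXA site. These are matches of letters and were not tested as binding sites.

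Members stood at CpG-rich start sites, and their windows carried the motifs of general promoter factors. RefSeq start sites, with 300-base windows (250 before and 50 after the start), were matched to 418 of the 489 genes. Over all genes with a promoter entry, the start site itself lay inside a member for 378 genes. These include genes outside the 489, such as Hagh, Naa60, Srr and Usp37, with a start inside a member but no gene end within 1 kb of it. The windows of the 378 genes, called member windows here, had a median GC content of 66.0% and a median CpG ratio (observed over expected) of 0.907. Over all 17274 windows, 1 for each gene, the medians were 56.7% and 0.598, and over the 10070 windows whose start lay in no region of any list they were 51.0% and 0.286. A CpG ratio of at least 0.6 was found in 94.4% of member windows, 93.9% of windows at regions of 7 to 9 lists, 87.5% at 4 to 6 lists, 73.1% at 1 to 3 lists and 22.8% at no region. High CpG content is thus shared with the regions called in most lists and is not particular to those called in all 10. Where a gene has several starts, the one in the region called in the most lists was used, which favours called starts.

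The GC box (GGGCGG, read on both strands like the other motifs) was present in 76.2% of member windows, in 47.7% of all windows and in 29.0% of windows with no region. The ETS site (CCGGAAG) was in 21.2% of member windows against 12.2% of all and 4.68% with no region. Shares of the GC box and the ETS site were 77.3% and 23.6% at regions of 7 to 9 lists, so the members did not stand above those. The NRF1 core (GCATGCG), bound by a regulator of mitochondrial genes, was in 11.9% of member windows (95% Wilson interval 9.02 to 15.6), 9.57% at 7 to 9 lists, 5.87% at 1 to 3 lists and 1.75% with no region. The ZBTB33 core (TCTCGCG) followed the same order, with 10.3%, 8.75%, 3.99% and 1.32%. The YY1 site (AAGATGG) was in 10.3% of member windows, 8.25% at 7 to 9 lists and 6.44% of all windows. The CREB/ATF core (TGACGTC) was in 5.82% of member windows and 4.08% of all windows. Its share was 6.50% at 7 to 9 lists, 8.48% at 4 to 6 lists and 6.01% at 1 to 3 lists, so it was lowest in the members among the windows with a region. The CCAAT box (CCAAT), read by NFY, hardly differed, with 38.9% of member windows and 39.4% of all. The E-box (CACGTG) was in 8.99% of member windows, 12.2% at 1 to 3 lists and 8.07% of all windows.

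For motifs known from tissue-specific and inducible promoters the shares in the members lay near those at 7 to 9 lists, except for the TATA box, and no test of the differences was made. The TATA box (TATAAA) was in 6.35% of member windows and 19.0% of windows with no region. The AP-1 site (TGANTCA) was in 3.17% of member windows, 3.17% at 7 to 9 lists and 9.66% with no region. The C/EBP site (TTGCNNAA) was in 6.08%, 6.90% and 12.2%. The FOXA site (TGTTTAC) was in 1.85% (interval 0.9 to 3.77), 1.91% and 3.40%. The TATA share of the members (interval 4.30 to 9.27) was above that at 7 to 9 lists, 3.96% (interval 3.32 to 4.72), and the intervals overlap. The TATA box was singled out after the shares of all motifs were seen. Genes that share a region were counted separately, such as Cwc27 and Srek1ip1, both with a TATA box. GC content moved with these shares as given above, and its part in them was not tested. The intervals cover counting error only.

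**Figure D1:**
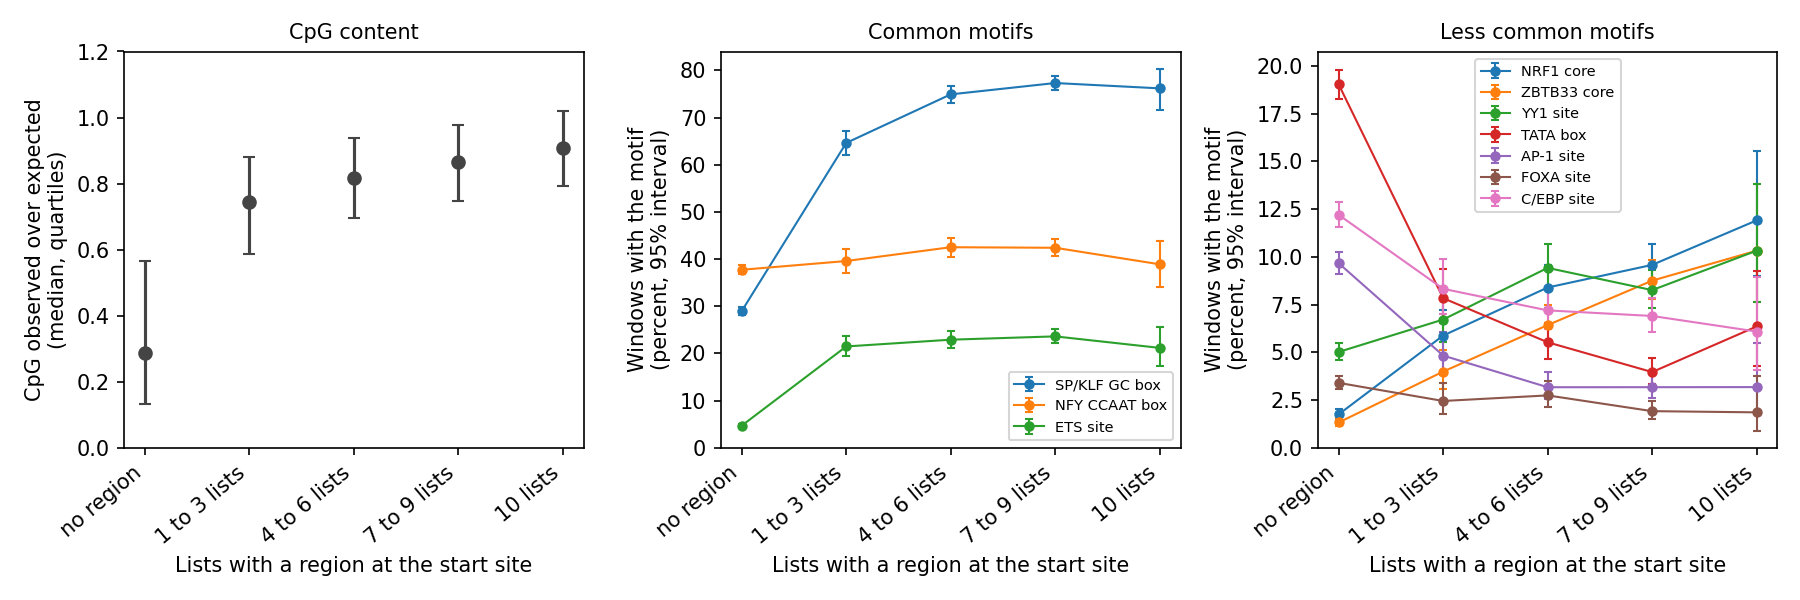
Promoter windows of 300 bases grouped by how many lists had a region at the start site. Left, median CpG observed over expected with quartiles; middle and right, the percent of windows with each motif with 95% Wilson intervals. The CpG ratio runs from 0.286 with no region to 0.907 in the members, the GC box from 29.0% to 76.2%, and the TATA box from 19.0% to 6.35%.

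Gene starts, not gene 3′ ends, made up the members. Strand is known for genes with a promoter entry. At 346 members the start of a gene, as the gene's outermost base on its strand, lay within 1 kb. By the start sites of the promoter table, 339 members had one within 1 kb and 325 contained one. Only the 3′ end of a gene of known strand lay within 1 kb at 7 members, among them the region at Lars2 described below, and 50 members touched only genes whose strand is not in the table. At 58 members 2 genes started on opposite strands, as at Eif2a (initiation) and Serp1 (a protein of the secretory pathway). In all 86 members, 21.3%, touched 2 or more genes, beside 21.9% of gene-end regions in 7 to 9 lists and 13.9% of those in 1 to 3 lists. A single member touched 3 genes, Ak6, Rad17 and Taf9. The gene end lay inside the region in 350 members, 1 to 200 bp away in 19 and farther in 34. The members nearest to the 1 kb limit were Gm10710 at 991 bp, Nudt9 at 929 bp and Hes1, a Notch target gene, at 902 bp. The regions just beyond it were nearest to Clip2 at 1071 bp, Tmem219 at 1083 bp and Nup210 at 1140 bp.

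The summit of a region is the deposited peak point of its row with the highest fold. At the median it lay slightly before the start site in every library. The start used was the annotated one in the region nearest the median summit of the 10 libraries, so closeness to a start is partly set by this choice. Where genes start on opposite strands and run apart, a summit between their starts counts as upstream of either. Over the 325 members that held a start site, the median summit position ran from 14 bp before the start in Homo 1 to 63 bp before it in WT 2. The share of summits on the upstream side was 65.5% to 70.8% in the WT libraries and 67.1% and 68.9% in Het 2 and Het 1. It was 57.2% in Het 3, 53.8% in Homo 1, 63.1% in Homo 2 and 72.6% in Homo 3. Homo 3 thus lay above every WT library and the other Homo libraries below them, and Het 3, Homo 1 and Homo 2 are the 3 libraries with the fewest regions. Summits of a member were spread over a median range of 259 bp across the 10 libraries. The range was 14 bp at Lars2 and at Sspn and 22 bp at Oasl1, and 1199 bp at the region shared by Srsf2 and Mfsd11. It was at most 100 bp in 18 members and over 500 bp in 49.

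**Figure D2:**
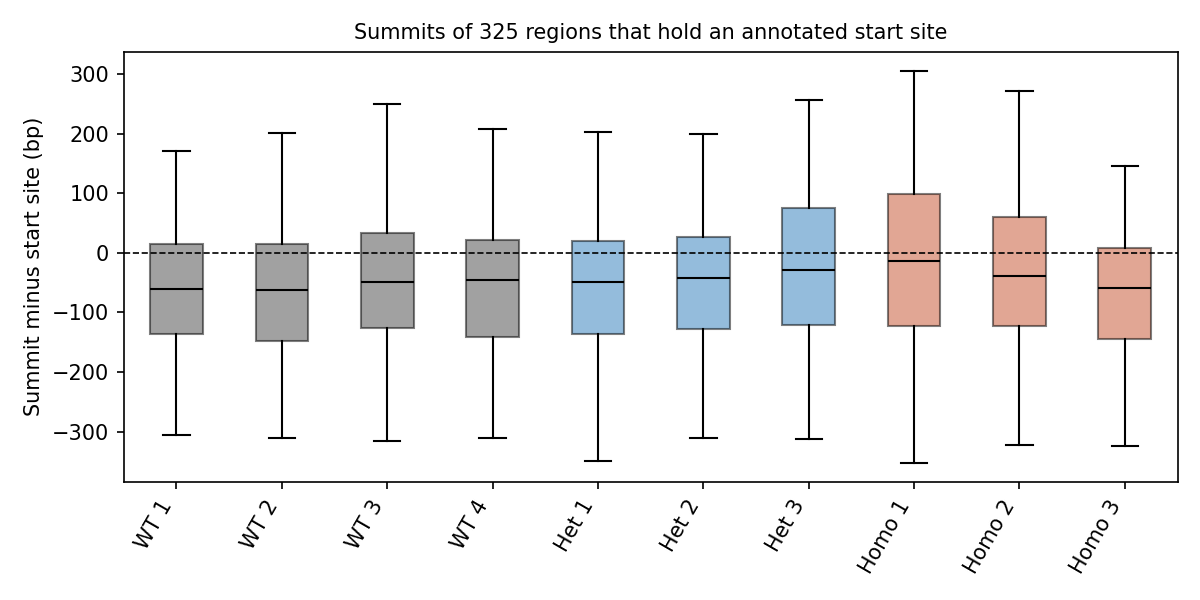
Summit position relative to the annotated start site for the 325 members that hold one, by library, in bp along the gene (negative is before the start). Where a region holds several starts, the one nearest the median summit was used. Boxes show the quartiles and the median, whiskers run from the 5th to the 95th percentile; grey is WT, blue Het, red Homo. Medians lie between -14 bp in Homo 1 and -63 bp in WT 2.

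How many members the rule finds was set largely by the shortest list. The lists held 1748 regions in Homo 2, 2583 in Het 3, 3863 in Homo 1 and 4666 to 9587 in the other 7 libraries. Depth, recovered from the lists as background tags per 200 bp, ran from 0.464 in Homo 2 to 1.75 in WT 1, with 0.655 to 0.738 in the Het libraries. Members were 23.1% of the regions of Homo 2 and 4.20% of those of Homo 3. Of 790 gene-end regions called in 9 lists, 479 were missing only from Homo 2, 178 only from Het 3, 72 only from Homo 1 and none only from WT 4. Without Homo 2 the rule would give 882 regions. The weakest call of a member had a deposited −log10 p of 5.30, and 318 of the 403 had a value under 10 in some list, with 185 having their lowest value in Homo 2. The share of regions at a gene end rose from 43.2% of those in 1 list to 87.0% of those in 8, and was 82.8% in 9 and 62.3% in all 10.

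Among regions called in every list, those at gene ends had larger median widths and lower ranks by fold than those farther away. The rank percentile is the place of a region among the 647 within a library by the authors' fold at the summit, with 100 the highest. The fold is tags plus 1 over local background plus 1. In WT 1, WT 2, WT 3 and WT 4 the median percentile of the members was 42.1, 42.3, 41.4 and 42.4, and that of the other 244 regions 77.5, 78.9, 80.4 and 80.1. In the Het libraries the members stood at 41.9, 41.0 and 39.9 and the others at 79.4, 79.1 and 80.5. In the Homo libraries the members stood at 40.3, 40 and 45.1 and the others at 79.4, 80.3 and 66.5. The gap was smallest in Homo 3. Members were lower by 36.6 ± 5.54 percentile points (SD, n = 10 libraries), in 10 of 10 libraries, with p = 0.00195 by an exact two-sided sign-flip permutation test, the smallest p it can give. A mean percentile over 80 was reached by 4 of the 403 members and by 111 of the 244 others. The others are a mixed set. In 109 of them the highest tag count over the libraries was under 2 times the lowest, beside 14 of the members.

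The median width of a member was 549, 504, 524 and 576 bp in WT 1 to WT 4, 443, 408 and 337 bp in Het 1 to Het 3, and 441, 282 and 558 bp in Homo 1 to Homo 3. The regions farther away had medians between 300.5 bp in Homo 2 and 412.5 bp in WT 4. Members were wider by 103 ± 59.5 bp (SD, n = 10), in 9 of 10 libraries, with Homo 2 the exception (exact two-sided sign-flip permutation p = 0.00391). With mean in place of median widths the difference was 13.2 bp (exact p = 0.537), and 3 of the other regions had a mean width of over 3 kb, with a highest mean width of 4540 bp against 901 bp in the members. Width moved with depth over the 10 libraries (Spearman 0.879, a description).

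**Figure D3:**
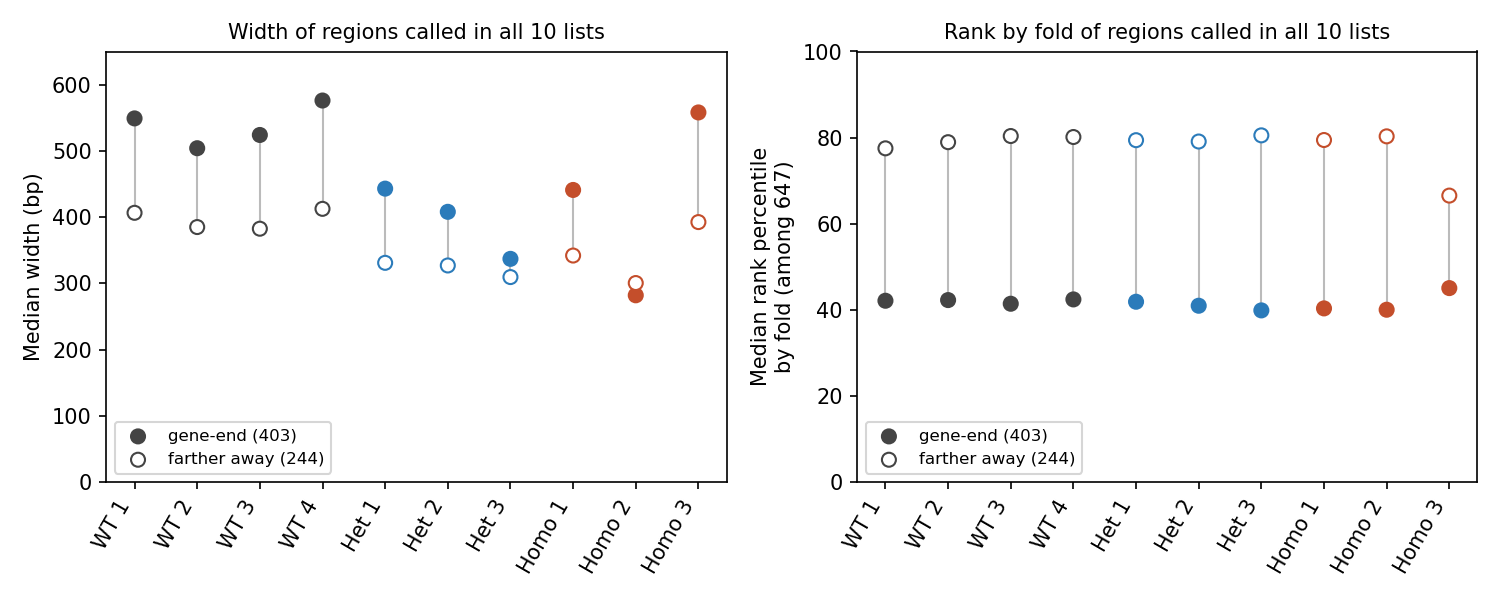
Median width in bp (left) and median rank percentile by fold (right) in each library for the 403 gene-end regions (filled) and the 244 regions farther from gene ends (open) called in all 10 lists; grey is WT, blue Het, red Homo. Filled points are lower by 36.6 percentile points on average and wider by 103 bp, except that in Homo 2 the members are narrower.

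The 4 members with the highest ranks did not hold an annotated start site. Lars2 encodes the mitochondrial leucyl tRNA synthetase, and the region at its 3′ end (chromosome 9, 123461777 to 123462268, mm10) had a fold of 27.2, 28.6, 29.4 and 28.2 in WT 1 to WT 4. In the Het libraries it was 31.7, 30.0 and 31.3, and in the Homo libraries 28.8, 31.2 and 25.8. Its mean rank percentile was 98.3. All 3 Het libraries were above all 4 WT libraries, and Homo overlapped both, while by rank score Het and WT differed by 0.12 ± 0.14 (SE; limma, adjusted p = 0.891). Sspn, which encodes sarcospan of the dystrophin complex, had a region 802 bp from its start (chromosome 6, 145932675 to 145933113) with folds of 25.1, 27.0, 27.1 and 28.8 in WT, 28.6, 30.9 and 30.7 in Het and 32.3, 31.4 and 24.2 in Homo, and a mean percentile of 97.8. Next came Gm10710, a predicted gene, with 83.9 and folds of 10.1 to 15.4, and Oasl1, an antiviral gene of the oligoadenylate synthetase family, with 83.1 and folds of 10.3 to 14.3. Neither region holds a start site, and both are narrow, with mean widths of 246 and 268 bp.

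Lars2 and Sspn also differed from other members in how tags scaled with depth. Lars2 had 206, 196, 191 and 219 tags at the summit in WT, 197, 189 and 193 in Het and 217, 182 and 167 in Homo, and the shallowest library, Homo 2, had 182 where the deepest, WT 1, had 206. The highest count was 1.31 times the lowest at Lars2 and 1.81 times at Sspn, while depth differed 3.76-fold between libraries and the median ratio over members was 3.18. The ratio was under 2 in 14 of 403 members and in 109 of 244 regions farther away. The local background recovered from the fold was also high for the library's depth at these regions. Its median ratio to depth was 6.34 at Lars2 (3.42 to 10.5 over the libraries) and 4.94 at Sspn (2.41 to 7.59), beside 1.87 over all members. Like the tags, this background changed little with depth at Lars2, with 4.86 in Homo 2 and 6.8 in WT 4. Whether it counts tags of the region itself is not given, so it is not a separate measure of the DNA beside the region.

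Among members that hold a start site the highest ranks were those of Vmn2r29, a vomeronasal receptor gene, with a mean percentile of 76.1 (folds of 9 to 12.3), Them4 with 70.4 (7.5 to 11.7) and Ccar1 with 70.2 (7.20 to 10.9). Tcea1, which encodes the elongation factor TFIIS and whose strand is not in the promoter table, had 72.6 (7.58 to 11.8). Folds of these genes in the 3 genotypes overlapped. Gm20594, a predicted gene, ranked at 74.8 and was the narrowest member, with a mean width of 212 bp. Zfp771, a zinc finger gene, had its region near the 3′ end and ranked at 69.3.

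Cebpb, the liver and stress transcription factor gene whose promoter drives the tTA transgene, was the only gene with 2 members. The first lies 885 bp from the nearer end of the gene (chromosome 2, 167687581 to 167688030) and the second covers the start (167688325 to 167689183). The first had 115, 85, 57 and 76 tags at the summit in WT, 55, 41 and 41 in Het and 42, 46 and 105 in Homo, and the second between 30 and 74. The median member had between 11 tags in Homo 2 and 32 in Homo 3. By tags the Cebpb regions came next after Lars2 and Sspn among all members, with mean percentiles among members of 99.2 each. By fold they ranked at 57.7 and 36.8 among the 647 regions, a different set, so the percentiles by tags and by fold are not on one scale. The local background, over which the fold is taken, was 6.83 and 6.86 times the library's depth (medians over libraries), the 2 highest of all members, with 5.70 to 7.97 over the libraries. The transgene carries LAP sequence, and tags from the transgene and from the gene itself cannot be told apart in these lists.

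The lowest ranks by fold were held by a mixed set of regions, with Jun lowest. Jun, an AP-1 subunit gene, had folds of 5.95, 4.82, 4 and 4.50 in WT, 4.39, 4.41 and 5.15 in Het and 5.04, 4.49 and 5.01 in Homo, a mean percentile of 5.18, the lowest of the members. Next came Cdk2ap2 (7.36), the Srsf2 and Mfsd11 region (11.3), the Cwc27 and Srek1ip1 region (11.4), Nfkbia (11.5) and Jund (11.9). By tags, Jun and Jund stood high, with 21 to 43 and 22 to 64 tags at the summit and mean percentiles among members of 91.2 and 92.9. The percentiles by fold are among the 647 regions and so not on the same scale. Their local background was 6.31 and 6.28 times the depth. The widest members were the Srsf2 and Mfsd11 region (mean 901 bp), Jund (829.5 bp) and the Klf3 and Gm38457 region (829.4 bp).

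**Figure D4:**
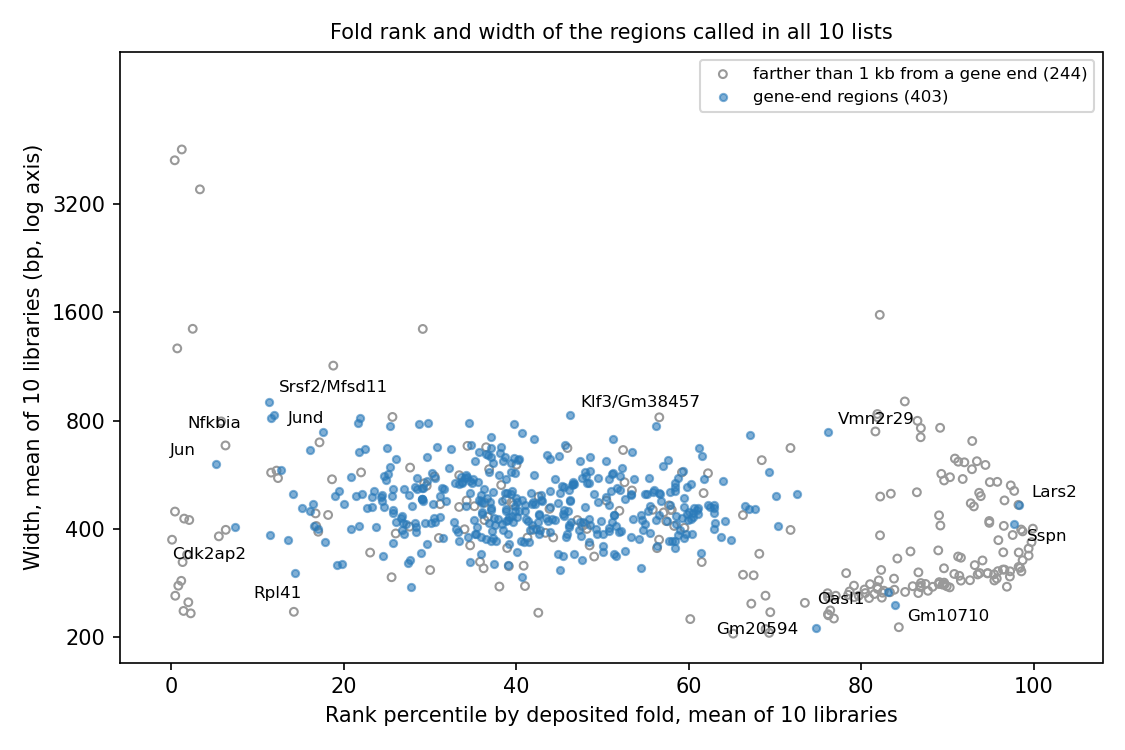
Rank percentile by the authors' fold (x axis, mean of 10 libraries) against width in bp (y axis, log scale, mean of 10 libraries) for the 647 regions called in all 10 lists; blue, 403 gene-end regions, open grey, 244 others. Most members lie in the middle of the rank range, with Lars2 (98.3) and Sspn (97.8) at the right and Jun (5.18) at the left.

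Immediate early and stress genes had the largest share of genes with a member of the 28 gene lists. Of 43 genes found, 8 had a member (18.6%, beside 2.26% over all protein-coding genes and 22.2% of the 36 list genes with a gene-end region in any list, beside 5.30% over all such genes). They were the heat shock genes Dnajb1 and Hsph1, Hspa5, the antiproliferative genes Btg1 and Btg2, the NF-kappaB inhibitor gene Nfkbia, and Jun and Jund. Their median rank percentile was 22.2 and their median mean width 591 bp, beside 40.8 and 465 bp over all members. Hspa5 had folds of 6.80, 6.65, 6.92 and 6.28 in WT, 8.16, 7.33 and 6.49 in Het and 5.06, 6.02 and 7.29 in Homo. Dnajb1 had 8.95, 7.47, 6.67 and 8.05 in WT, 7.80, 8.26 and 4.46 in Het and 5.22, 5.78 and 10.2 in Homo. The 3 genotypes overlapped at both genes, and Het 3 and Homo 1 were the lowest at Dnajb1.

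Translation initiation factors came next, with 7 members of 55 genes (12.7%), namely Eif2a, Eif4h, Eif2s2, Eif2b4, Eif4e2, Eif4g2 and Eif4a1, with rank percentiles of 36.0 to 58.4 and a median of 46.5. Cytosolic ribosomal protein genes had 4 of 87 (4.60%), mitochondrial ones 2 of 78 (2.56%) and aminoacyl tRNA synthetases 2 of 36 (Lars2 and Lars). Of splicing factor genes 4 of 55 had a member (7.27%), Hnrnpc, Srsf7, Srsf10 and Srsf2, and of histone-modifying enzymes 4 of 56 (7.14%), Prmt5, Setd2, Kdm4a and Kdm4b. MYC-regulated growth genes, chosen because MYC drives these tumours, had 3 of 37 (8.11%), Npm1 and Gnl3 of the nucleolus and Eif4a1. Of the SWI/SNF subunits only Pbrm1, at a region it shares with Gnl3, had a member, 1 of 28 (3.57%).

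Liver genes had members in some lists and none in others. Of 31 liver transcription factor genes 3 had members (9.68%, and 23.1% of the 13 with a gene-end region in any list, the largest share counted that way), Cebpb, Nr1h3 (an oxysterol receptor gene) and Zbtb20. The Nr1h3 region is shared with Acp2, and the annotated start inside it is that of Acp2, not Nr1h3. The Zbtb20 region holds no annotated start. Of 42 liver metabolism genes 3 did (7.14%), Glul (glutamine synthetase), Acaca (acetyl-CoA carboxylase) and Fasn (fatty acid synthase). The Acaca region is shared with Tada2a, and the annotated start inside it is that of Tada2a, not Acaca. Glul had folds of 6.67, 9.41, 7.72 and 7.29 in WT, 9.09, 9.60 and 6.54 in Het and 9.88, 9 and 8 in Homo. None of 31 genes of secreted liver proteins did, although 15 of them had a gene-end region in some list. None of the 8 hepatocyte markers (Alb, Apoa1, Ttr, Trf, Serpina1a, Hnf4a, Cps1 and Apob) had a member, and 5 had a gene-end region in some list. None of 30 markers of endothelial, stellate, macrophage, lymphocyte or neutrophil, erythroid and cholangiocyte cells had one either, and 4 of those had a gene-end region in some list (1 macrophage, 1 erythroid and 2 cholangiocyte markers). The labelled tissue can therefore not be checked from the members alone. The other lists stood near the background, with 11 of 397 Zfp genes (2.77%), 2 of 84 oxidative phosphorylation genes (2.38%), 2 of 102 histone genes (1.96%) and 1 of 58 RNA polymerase and Mediator genes (1.72%). Cell cycle genes had 2 of 51, mRNA transport and decay genes 2 of 43, ubiquitin and autophagy genes 1 of 33, housekeeping reference genes 1 of 31 and proteasome genes 1 of 39. The lists describe which genes the rule selected, and no test was made on them.

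The genotype comparison asks whether members gained or lost rank among the 647 regions with loss of Arid1a. Only regions called in every list entered it. A region whose call was lost or gained between genotypes could therefore not appear, and few calls here do not speak for such regions. In bulk tumour tissue fewer cells with an open region and less opening in each cell cannot be told apart. Ranks were turned into normal scores within each library and compared with limma over all 647 regions, with Benjamini-Hochberg adjustment. Homo against WT gave 0 members at an adjusted p under 0.05 (background 0% of 647) and 28 at an unadjusted p under 0.05 (6.95% of members, 12 higher and 16 lower, beside 5.72% of 647). Het against WT gave 0 (background 0%) and 30 (7.44%, 13 higher and 17 lower, beside 6.65%). Homo against Het gave 1 (background 0.155%) and 32 (7.94%, 16 in each direction, beside 6.65%). Homo against WT and Het against WT share the WT libraries, and Homo against Het shares libraries with both. The median difference over members was 0.00 for Homo against WT, -0.04 for Het against WT and 0.00 for Homo against Het on the score scale, and over all 647 regions -0.01, 0.00 and -0.01. The scoring gives every library nearly the same mean over the 647 regions. These medians are thus largely set by the scaling, and a shift common to all regions could not appear.

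Appbp2, which encodes a protein that binds the amyloid precursor protein, was the member that passed. Its region (chromosome 11, 85234632 to 85235376) had folds of 7.03, 7.28, 7.10 and 6.97 in WT, 5.29, 5.56 and 5.24 in Het and 7.75, 8.85 and 9.12 in Homo. No group overlapped another: Homo was highest, WT between and Het lowest. The score was higher in Homo than in Het by 1.79 ± 0.18 (SE; limma, adjusted p = 0.0043). It was higher in Homo than in WT by 0.91 ± 0.17 (adjusted p = 0.0944) and lower in Het than in WT by 0.88, with adjusted p = 0.163. The Homo against Het call was lost when regions were ranked by −log10 p (adjusted p = 0.122) and when ranked among members alone (adjusted p = 0.0559). In lists thinned to equal depth no such call was made among the 105 members left.

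Chsy3, a chondroitin sulfate synthase gene, came closest in Homo against WT. It had folds of 5.06, 5.84, 4.51 and 5.42 in WT, 8.04, 6.48 and 5.34 in Het and 8.33, 6.67 and 8.29 in Homo. Every Homo library was above every WT library, and Het overlapped both. The score was higher in Homo than in WT by 1.69 ± 0.25 (SE; limma, adjusted p = 0.0622), and passed with adjusted p = 0.0387 when ranked among members alone, 0.0255 without Het 1 and 0.0352 without Het 3. The region between Hs2st1, a heparan sulfate sulfotransferase gene, and Selenof, a selenoprotein gene, had folds of 9.31, 11.7, 8.99 and 10.8 in WT, 7.34, 7.55 and 5.75 in Het and 6.50, 5.73 and 8.17 in Homo. All Het and Homo libraries were below all WT libraries, with score differences of -1.14 (limma, adjusted p = 0.0944) for Homo and -1.12 (adjusted p = 0.138) for Het. Ergic2, a gene of traffic between endoplasmic reticulum and Golgi, had folds of 10.3, 10.8, 8.90 and 9.64 in WT, 7.84, 6.44 and 5.45 in Het and 10.4, 7.32 and 13.1 in Homo. Het lay below WT by 1.29, with a score difference of -1.29 (limma, adjusted p = 0.138), and did not pass.

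**Figure D5:**
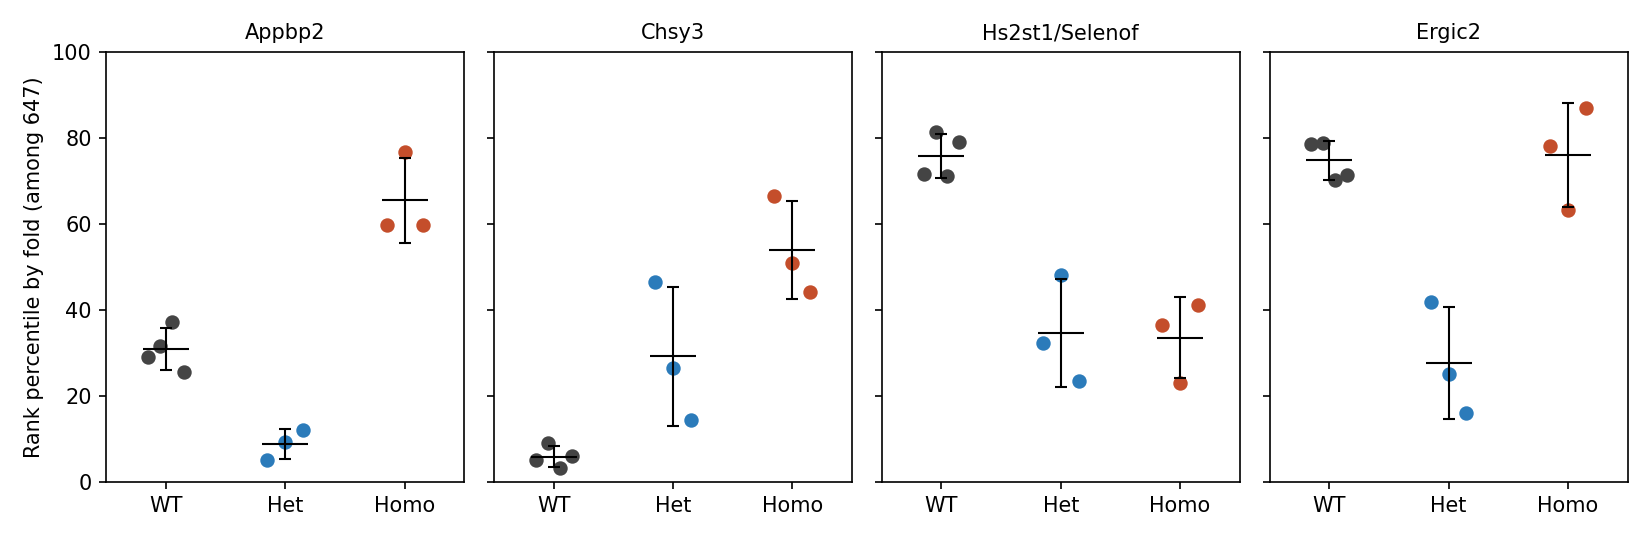
Rank percentile by fold among the 647 regions in each library for the members with the smallest p in the 3 genotype comparisons. Points are libraries (grey WT, blue Het, red Homo), bars the mean and SD; in Appbp2 the 3 genotypes do not overlap, and Homo against Het is the single call (limma, adjusted p = 0.0043).

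Members were narrower in Het than in WT by 142 bp, and so were the regions farther from gene ends. The mean over libraries of the median width was 396 ± 54.0 bp in Het (SD, n = 3) and 538 ± 31.2 bp in WT (SD, n = 4), and all 3 Het libraries were below all 4 WT libraries. The other 244 regions had median widths of 331, 327 and 309.5 bp in Het and 406.5, 385, 382.5 and 412.5 bp in WT, again without overlap, and so did all regions of a list, at 273 to 308.5 bp in Het and 342 to 383 bp in WT. For the members the exact two-sided permutation p was 0.0286, the smallest this design can give, and 0.0857 after adjustment over the 3 comparisons. Depth moved with it, at a mean of 0.696 in Het and 1.32 in WT (exact p = 0.0571), and its part in the difference was not tested. Homo had 427 ± 139 bp (SD, n = 3), lower than WT by 111 bp (difference -111.25; exact p = 0.143), with Homo 3 at 558 bp inside the WT range and Homo 2 at 282 bp far below it. Without Homo 2 the difference was -38.75 bp, and without Homo 3 -176.75 bp. Homo and Het differed by 31 bp (exact p = 0.9), where the smallest possible p is 0.1, and by 103.5 bp without Homo 2, 54.5 bp without Het 1, 1.5 bp without Het 3 and -34.5 bp without Homo 3.

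The order of the members by fold was only loosely shared between libraries. Spearman correlations between libraries over the 403 members, a description, ran from 0.0870 (Homo 1 and Homo 3) to 0.583 (WT 1 and Homo 3). They averaged 0.355 within genotypes and 0.295 between them, a difference of 0.0599 (exact one-sided permutation over 4200 arrangements, p = 0.0562). Homo 3 was closer to WT 1 (0.583) and WT 2 (0.549) than to Homo 1 (0.0870) or Homo 2 (0.128), and its depth of 1.61 lay within the WT range of 0.985 to 1.75. Without Homo 3 the difference was 0.144 (exact p = 0.000794), and it was smaller with any other library left out, as given in the closing section. Homo 3 had low correlations within its own group, so leaving it out raises the difference. That p is therefore not a separate test of genotype. Depth also differed between libraries, and its part was not tested. A typical member's percentile covered a median range of 54.9 points over the 10 libraries. Its highest fold was 1.68 times its lowest and its widest call 2.71 times its narrowest (medians over members).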

How the data were processed

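ATAC-seq was made from 10 tumour libraries. Per the submitters' processing notes the tools were Bowtie2, MACS2 and deepTools and the build mm10, and the sources used here give no versions, settings or read filters. The authors deposited 1 peak list per library with a score, a fold at the summit and −log10 p and −log10 q values per peak. These are the authors' own values. They were used to rank and filter peaks within a list and to recover tags and depth, and folds of named members were also set side by side across libraries. The fold was read as tags plus 1 over local background plus 1. The added 1 lowers the fold most where background is low, so folds of libraries of unlike depth are not on one scale. At Tcea1, Homo 2 had 14 tags, a background of 0.98 and a fold of 7.58. WT 1 had 30 tags, a background of 2.6 and a fold of 8.61.

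From each row a whole number of tags and a Poisson background that give both the deposited fold and −log10 p (tolerance 0.001) were recovered. Depth was taken as the lowest background value that 10 or more rows held. It was not checked against read totals. No read counts per region were analysed, so values carry no counting interval.

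Rows were merged within each list and joined over the lists. Members were placed within 1 kb of either end of genes in the RefSeq table for GRCm38.p6, which matches mm10. Starts, strands and sequences came from the promoter table. Ranks by fold among the 647 regions of all 10 lists were compared with limma 3.58.1 (R 4.3.3), and other values with exact permutation tests in scipy 1.17.1. The limma step was tested on simulated data.

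The members and the gene lists were chosen with earlier results of these data known. Named genes were the 10 highest ranks, the smallest p in each comparison, up to 4 of each gene list by rank, the widest, narrowest, most and least variable and lowest members, those nearest 1 kb, and regions touching 3 genes. Other list members named, and the sequences shown, were chosen after their values were seen. Settings tried instead are given in the closing section.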

Additional observations from a re-analysis of the deposited data

Results flagged for a closer look

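Among the 4 WT libraries 1 library stood apart from the other 3 in the fold of 4 named members, by a gap that filled most of the group's range (Dixon's test at the 95% level). Of 77 groups of 4 tested 4 met this, and chance flags about 1 in 20. At Zfp317, a zinc finger gene, WT 2 had a fold of 12.9 against 9.19 to 9.69 in the other WT libraries. At Ube2n, which encodes a ubiquitin-conjugating enzyme, WT 1 had 9.82 against 7.67 to 7.97. At the region shared by Acaca and Tada2a, WT 3 had 7.09 against 8.51 to 8.63. At the region shared by Eif4a1 and Senp3, WT 3 had 7.41 against 6.42 to 6.57.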

How the results depend on the processing

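The number of members was 403, and 85 with a −log10 p of at least 10 in every list, 39 with lists cut to equal length, 105 with lists thinned to equal depth, and 403 to 882 with any 1 library left out (882 without Homo 2, 581 without Het 3). Homo against WT gave 1 call when ranked among members alone and 0 to 1 with 1 library left out. Homo against Het gave 0 calls by −log10 p, among members alone, in thinned lists and with a replicate block, and 1 to 2 with 1 library left out (2 without Het 1). Het against WT gave 0 calls under every alternative run. The Het against WT width difference of -142 bp was -130 bp (exact p = 0.25) in the replicate block of paired differences and -166 to -113 bp with 1 library left out, where p cannot reach 0.05. The Homo against Het width difference reversed from 31 bp to -34.5 bp without Homo 3, and was up to 103.5 bp without Homo 2. The width difference between members and farther regions was 13.2 bp with means (exact p = 0.537). The similarity difference was 0.144 without Homo 3 and 0.0215 to 0.0764 without any other library. Appbp2 had an adjusted p of 0.0661 with the replicate block and 0.0113 to 0.031 with 1 library left out (limma). The cause of these changes was not tested, except that leaving out libraries or thinning leaves fewer samples or members. Same-numbered libraries did not move together (correlations of -0.223 to 0.116), so the numbers were not taken as pairs. Of the other 170 recomputed values of this kind, the tested differences kept their direction and side of the threshold. Among these 170 values the numbers of calls were unchanged, and the numbers of members ran from 383 (within 500 bp) to 581 (without Het 3). The shares of motifs and gene lists, which have no threshold, stayed inside the Wilson interval of the main share. Homo 2, with the shortest list, was also the shallowest library, while Het 3, with the next shortest, was not shallower than Het 1 or Het 2.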

Other observations

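The X chromosome was nearly empty of members. Of 966 protein-coding genes on X, 1 region was a member, at Hccs (holocytochrome c synthase) and Gm15246, which is 1.04 members for each 1000 genes, while the autosomes had 7.73 (chromosome 15) to 29.5 (chromosome 3). Gene-end regions called in any list were also fewer on X, at 170 for each 1000 genes against 304 to 455 on the autosomes. Of these regions 0.61% were members on X and 1.81% to 7.34% on the autosomes. The labels used here do not give the sex of the mice.

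The members whose rank varied most between libraries were Zfp113, Abcf2 (an ATPase of the ABC family) and Cobll1. Abcf2 had folds of 10.5, 9.12, 8.89 and 12.2 in WT, 9.17, 9.09 and 5 in Het and 5.26, 5.17 and 9.34 in Homo, so Het 3, Homo 1 and Homo 2 were low and Homo 3 lay among the WT libraries. Cobll1 had 5.15, 5.56, 4.94 and 7.35 in WT, 6.58, 7.25 and 7.30 in Het and 7.84, 7.83 and 5.40 in Homo, and again Homo 3 lay among the WT libraries. No comparison of genotypes passed for these genes (limma, lowest adjusted p = 0.693).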
